A study of Homo sapiens with 6 samples.

Results

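The genes of the topoisomerases and of the enzymes that release trapped topoisomerase from DNA were examined in RNA-Seq libraries of U2OS cells, a human osteosarcoma line. The genes were fixed by name: TOP1, TOP1MT, TOP2A, TOP2B, TOP3A, TOP3B, TDP1 and TDP2, which are 8 of the 67140 gene identifiers in the etoposide libraries, and each symbol matched a single Ensembl identifier. The series holds 6 libraries in 3 groups of 2: untreated cells, cells given adriamycin at 1.5 μg/ml and cells given etoposide at 100 μM, each drug over 4 h, and all wild type by their labels. The study's legends call the replicates of its expression data technical. A legend adds that the cells were cultured apart, but for panels on insulation at chromatin boundaries with control and adriamycin. No such description was found for etoposide, so the spread between these libraries may be technical. All 8 genes were read in the etoposide libraries, which hold 21450766 and 14244235 counts. For the control and adriamycin libraries only 220 to 292 genes at the top of the table were read here, and 0 of the 8 are among them. Levels with etoposide are therefore described, and no change against untreated or adriamycin-treated cells was tested.

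Topoisomerases relieve the twisting of DNA by cutting it, passing strands through the gap and sealing it again. During the cut the enzyme is held to the DNA end through a tyrosine, and drugs called topoisomerase poisons stabilise this state. TOP1 and its mitochondrial relative TOP1MT cut a single strand, TOP2A and TOP2B cut both strands and are the target of etoposide and adriamycin, and TOP3A and TOP3B act on single-stranded nucleic acid. TDP1 cleaves the bond that TOP1 forms with a DNA 3′ end, and TDP2 cleaves the bond that TOP2 forms with a DNA 5′ end. TOP2A rises in proliferating cells before division, while TOP2B is made in dividing and resting cells alike. A library of bulk RNA gives the sum over all cells, so fewer cells that express a gene and less RNA per cell cannot be told apart.

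In etoposide-treated cells, TOP2A had the highest level of the 8 genes, TOP1MT followed per kilobase of exon, and TDP1 and TOP3B were the lowest. The TOP2A gene (ENSG00000131747) lies on chromosome 17, 40388525 to 40417896, GRCh38, minus strand. It had 7642 and 5705 counts in the libraries, or 356 and 401 counts per 1000000 counts of the library (CPM), with a mean of 378 ± 31.3 CPM (SD, n = 2). The TOP2B gene (ENSG00000077097), chromosome 3, 25597978 to 25664909, minus strand, had 2822 and 1898 counts, or 132 and 133 CPM, with a mean of 132 ± 1.19 CPM (SD, n = 2). Both libraries of TOP2A lay above both libraries of TOP2B. TOP2A held 73.0% of the counts of the pair in the first library, with an exact Clopper-Pearson 95% interval of 72.2% to 73.9%, and 75.04% in the second, with an interval of 74.0% to 76.0%. These intervals cover counting error only.

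Levels of different genes were compared per kilobase, as CPM per kilobase (RPKM). Lengths of 2 kinds were used, because the merged exons of all annotated transcripts of a gene can be far longer than a single mRNA. For TOP2B the merged exons span 18645 bases and the longest coding transcript 5814 bases, while for TOP2A the values are 6374 and 5695 bases. Over merged exons, TOP2A stood at 59.4 ± 4.91 RPKM and TOP2B at 7.10 ± 0.0641 RPKM (SD, n = 2 in each), and TOP2A made up 89.3% ± 0.705 of the level of the pair. Over the longest coding transcript, TOP2A stood at 66.4 ± 5.49 RPKM and TOP2B at 22.8 ± 0.206 RPKM, and the share of TOP2A was 74.4% ± 1.40. TOP2A was thus 8.36 times TOP2B on the former scale and 2.92 times on the latter, and the direction was the same in both libraries.

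The promoters of these isoenzymes are shown because the 2 genes code for closely related proteins at different levels. The sequences are the 250 bases before the annotated start, from RefSeq on GRCh38.p14, written 5′ to 3′ along the gene, with the CCAAT box in capitals wherever it occurs on either strand (there as its reverse complement).
TOP2A, minus strand, chr17:40417897-40418146: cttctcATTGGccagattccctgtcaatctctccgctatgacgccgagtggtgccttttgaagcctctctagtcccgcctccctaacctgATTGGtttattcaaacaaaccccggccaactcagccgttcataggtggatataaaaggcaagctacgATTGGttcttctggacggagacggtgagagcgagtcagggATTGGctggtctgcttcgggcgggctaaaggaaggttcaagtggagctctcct
TOP2B, minus strand, chr3:25664908-25665157: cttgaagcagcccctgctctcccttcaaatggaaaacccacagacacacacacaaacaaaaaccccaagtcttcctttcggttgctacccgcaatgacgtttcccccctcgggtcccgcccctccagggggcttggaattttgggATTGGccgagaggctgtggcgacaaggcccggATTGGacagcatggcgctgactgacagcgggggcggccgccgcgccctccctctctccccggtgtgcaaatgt
The TOP2A stretch held 4 CCAAT boxes and the TOP2B stretch held 2, all of them on the opposite strand. A CCAAT box occurred in 32.0% of 35116 promoter stretches of this length, and 4 or more occurred in 0.874% of them. TOP2A also held 1 TATAAA, a motif found in 10.7% of the stretches on either strand, and TOP2B held none. The motif GGGCGG, found in 42.6% of the stretches, went the other way, with 1 in TOP2A and 2 in TOP2B. The GC content was 53.2% for TOP2A and 61.2% for TOP2B. RefSeq lists another start of TOP2B, and the 250 bases before it held 0 CCAAT boxes and 1 GGGCGG. These matches describe the letters of the stretches, and no binding was measured here.

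The enzymes of type IB were also well represented. The TOP1 gene (ENSG00000198900), chromosome 20, 41028822 to 41124487, plus strand, had 1615 and 1144 counts, or 75.3 and 80.3 CPM, with a mean of 77.8 ± 3.55 CPM (SD, n = 2). The TOP1MT gene (ENSG00000184428), chromosome 8, 143304384 to 143359979, minus strand, had 1976 and 1469 counts, or 92.1 and 103 CPM, with a mean of 97.6 ± 7.79 CPM (SD, n = 2). The enzyme of the mitochondria was above the nuclear enzyme in both libraries on every scale. Per kilobase of the longest coding transcript, TOP1MT stood at 49.3 ± 3.93 RPKM and TOP1 at 20.8 ± 0.951 RPKM. TOP1 made up 29.8% ± 0.714 of the level of the pair on this scale and 33.6% ± 0.762 over merged exons. TOP1P1, a pseudogene of TOP1, had 9 and 5 counts, so few counts lay on this copy.

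TOP3A, which resolves recombination intermediates together with BLM, RMI1 and RMI2 and also acts in mitochondria, had 1532 and 1102 counts. The gene (ENSG00000177302) lies on chromosome 17, 18271428 to 18315007, minus strand, and its level was 71.4 and 77.4 CPM, with a mean of 74.4 ± 4.20 CPM (SD, n = 2). Its longest coding transcript has 6596 bases, over which it stood at 11.3 ± 0.637 RPKM, under TOP1 at 20.8. Over merged exons the direction was the opposite, with TOP3A at 9.05 RPKM and TOP1 at 7.68 RPKM. TOP3B, an enzyme that also acts on RNA, had only 8 and 27 counts, or 0.373 and 1.90 CPM. TOP3B was the only one of the 8 genes with under 10 counts in a library, and its second library was 5.08 times the first, with a counting interval of 2.25 to 12.9 times (exact, 95%).

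The TOP3B gene (ENSG00000100038) lies on chromosome 22, 21957025 to 21982813, minus strand, and 90.8% of its merged exon bases are also exons of PPM1F-AS1, a long noncoding RNA gene on the opposite strand. Of the 18 exons of the TOP3B reference transcript (MANE Select), 17 are covered entirely, and 58 of its 2834 bases are free of other genes. PPM1F-AS1 itself had 221 and 164 counts, or 10.3 and 11.5 CPM. The strand and multi-overlap settings of the counting are not given in the sources used here, and by default the counter assigns no gene to a read that lies on exons of more than 1. Among the 533 protein-coding genes with under 10% of their exon bases free, 5.44% had 10 or more counts in both libraries, against 70.7% of the 19359 others. The part of the overlap in the count of TOP3B was not tested. Per kilobase of free exon bases, 614 in all, TOP3B stood at 0.607 and 3.09 RPKM, below and above TDP1 at 2.09 and 2.06 RPKM. The other 7 genes had 98.0% or more of their exon bases free. TOP1 shares 204 exon bases with PLCG1-AS1 on the opposite strand, which had 20 and 21 counts, and TOP2B shares 181 with ENSG00000275227 and 37 with MIR4442 on its own strand.

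**Figure D1:**
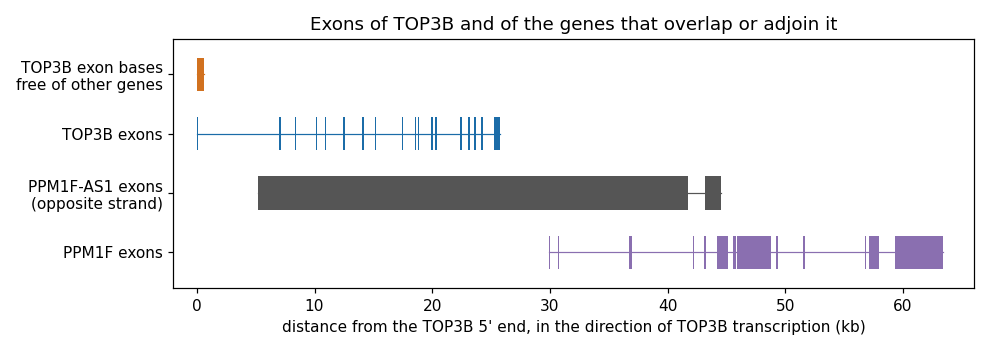
Exons of the TOP3B reference transcript, of PPM1F-AS1 and of PPM1F (boxes), with distance from the TOP3B 5′ end in kb on the horizontal axis. The PPM1F-AS1 exons cover 17 of the 18 TOP3B exons, and the stretch of TOP3B exon bases free of other genes, 614 bases, lies at the 5′ end.

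Of the enzymes that remove trapped topoisomerase, TDP2 was well above TDP1. The TDP2 gene (ENSG00000111802), chromosome 6, 24649979 to 24666930, minus strand, had 867 and 548 counts, or 40.4 and 38.5 CPM, with a mean of 39.4 ± 1.38 CPM (SD, n = 2). The TDP1 gene (ENSG00000042088), chromosome 14, 89954939 to 90044764, plus strand, had 279 and 183 counts, or 13.0 and 12.8 CPM, with a mean of 12.9 ± 0.113 CPM (SD, n = 2). TDP2, which acts on the adducts of the target of both drugs, thus exceeded TDP1 in both libraries. TDP2 held 75.7% of the counts of the pair in the first library (exact 95% interval 73.1% to 78.1%) and 74.97% in the second (71.7% to 78.1%). Per kilobase of merged exons the share of TDP2 was 86.4% ± 0.307 (SD, n = 2), and per kilobase of the longest coding transcript it was 84.3% ± 0.347. The ratio of TDP2 to TDP1 was 6.38 over merged exons and 5.36 over the longest coding transcript.

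The order of the 8 genes depended on the length used. Over merged exons it was TOP2A, TOP1MT, TDP2, TOP3A, TOP1, TOP2B, TDP1 and TOP3B, and for each neighbouring pair both libraries of the higher gene lay above both of the lower. Over the longest coding transcript it was TOP2A, TOP1MT, TOP2B, TOP1, TDP2, TOP3A, TDP1 and TOP3B, again with no overlap between neighbours. TOP2A, TOP1MT, TDP1 and TOP3B kept their place, while TOP2B moved from the sixth to the third. Over free exon bases, the order was that over merged exons, but the libraries of TDP1 and TOP3B overlapped. With 2 libraries per gene, lack of overlap is a description, and the 1.08-fold step between TOP1 and TOP2B over merged exons has the opposite direction over the longest coding transcript. Of the summed level of the 6 topoisomerases, TOP2A took 60.2% ± 0.577 over merged exons and 38.8% ± 0.586 over the longest coding transcript (SD, n = 2).

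**Figure D2:**
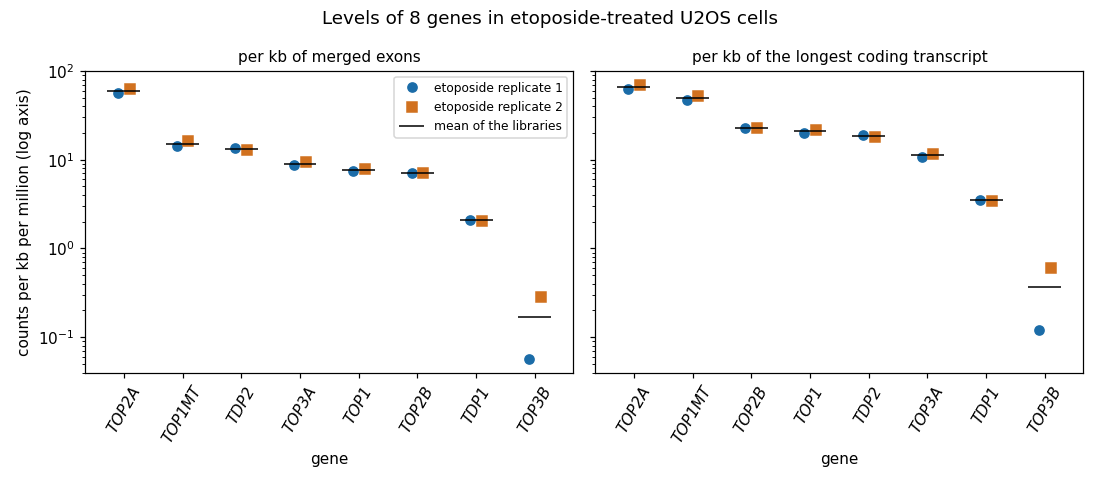
Levels of the 8 genes in the 2 etoposide libraries (points) with their mean (line), as RPKM on a log axis, over merged exons (left) and over the longest coding transcript (right). TOP2A is highest and TOP3B lowest in both panels, and TOP2B stands at 7.10 on the left and 22.8 on the right.

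Among protein-coding genes with 10 or more counts in both etoposide libraries, 6 of the 8 genes lay above the median on both length scales. The median of these 13676 genes was 7.13 RPKM of the longest coding transcript. TOP2A stood at the 93.1st percentile, TOP1MT at the 90.1st, TOP2B at the 77.6th, TOP1 at the 75.8th, TDP2 at the 73.2nd and TOP3A at the 61.7th. TDP1 stood at the 33.9th percentile and was the only gene with 10 or more counts in both libraries that lay below the median. The count of TOP3B would place it at the 5.22nd percentile, and with free exon bases as the length at the 27.5th. Over merged exons TOP2A stood at the 95.7th percentile and TOP2B at the 59.99th.

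**Figure D3:**
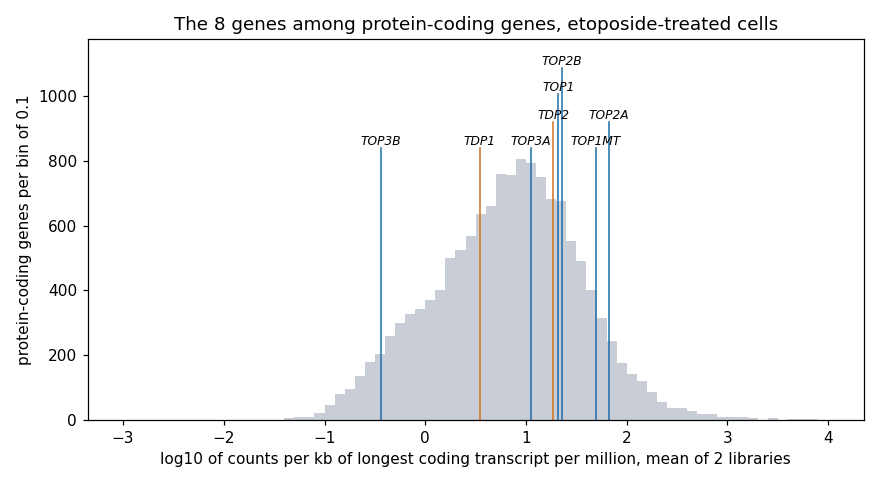
Number of protein-coding genes (grey bars) by the log10 of their level in RPKM over the longest coding transcript, mean of the 2 etoposide libraries, with the topoisomerases (blue lines) and the TDP enzymes (orange lines). TOP2A and TOP1MT lie in the upper tail, at the 93.1st and 90.1st percentile, and TDP1 and TOP3B lie left of the peak.

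The libraries were then compared with each other to see how precise these values are, with a two-sided exact binomial test given the library totals. This compares 2 libraries of 1 condition, not conditions, and its p-values cover counting error only. Of the 7 genes with 10 or more counts in both libraries, 3 differed at an unadjusted p under 0.05, where 29.9% of all 17207 such genes did. All 3 were higher in the second library, where 18.1% of all genes were called higher in the second and 11.8% in the first. TOP2A was 1.12 times as high in the second library (exact binomial p = 2.64e-11, adjusted over all genes 1.48e-09), and TOP1MT was also 1.12 times as high (exact binomial p = 0.00114, adjusted 0.00951). TOP3A was 1.08 times as high, with an exact binomial p of 0.0445 that rose to 0.154 after adjustment. For TOP1, TOP2B, TDP1 and TDP2, with log2 ratios between -0.07 and 0.09, no difference was detected. TOP3B was tested with a minimum of 1 count and differed by more than counting error (log2 ratio 2.35, exact binomial p = 1.35e-05, adjusted 0.00034). Of 3626 genes with 20 to 60 counts in all and at least 1 in each library, 10 had a p as small, TOP3B included.

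**Figure D4:**
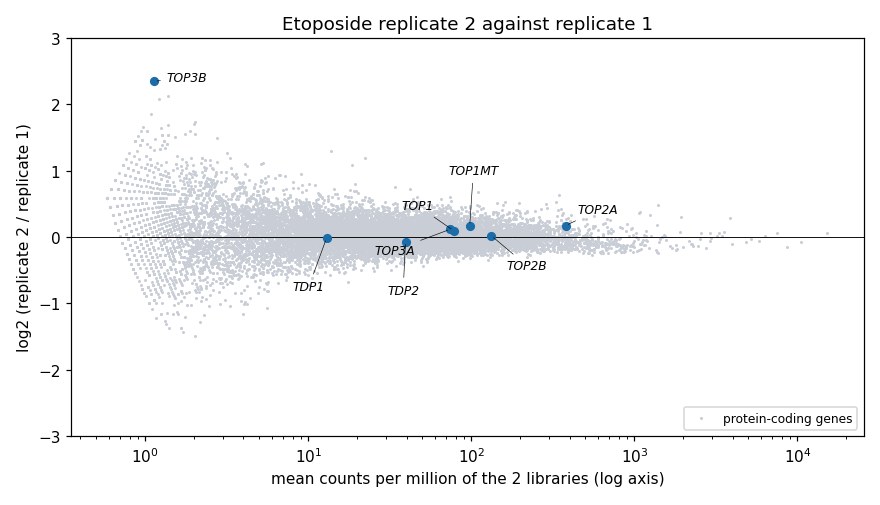
Log2 ratio of etoposide replicate 2 to replicate 1 against mean CPM (log axis) for protein-coding genes with 10 or more counts in both libraries (grey) and the 8 genes (blue). Of the 8 genes, 7 lie between -0.07 and 0.17, and TOP3B, which has 8 and 27 counts, lies at 2.35.

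The ratio between the libraries moved with transcript length over the whole transcriptome. Its median on the log2 scale was -0.09 for the 3419 protein-coding genes with the shortest transcripts, up to 2266 bases, and 0.13 for the 3419 genes with transcripts of 5519 bases or more. TOP2A, at 0.17, belongs to the latter with a transcript of 5695 bases, as do TOP2B at 0.02 and TOP3A at 0.12. TOP1MT, at 0.16, and TDP2, at -0.07, have transcripts of 1982 and 2120 bases and belong to the former. The part of transcript length in the differences between the libraries was not tested.

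The partners of these enzymes, cell cycle genes and meiotic genes related to type II enzymes were examined as lists fixed by name. In these lists 46 of 47 genes had 10 or more counts in both libraries, beside 68.9% of all 19892 protein-coding genes. Between the libraries, 18 of the 46 differed at an exact binomial p under 0.05, beside 29.9% of all genes, and 9 of them were higher in the second. Levels of these genes are given per kilobase of the longest coding transcript. Of the genes that process TOP2 adducts, 10 of 10 were measured, with a median of 10.9 RPKM beside 7.13 for the protein-coding genes with 10 or more counts in both libraries. VCP, a segregase that extracts proteins for degradation, was the highest at 120 ± 5.91 RPKM (SD, n = 2). ZNF451, a SUMO ligase that acts with TDP2, stood at 8.02 ± 0.740 RPKM. Of the MRE11 nuclease complex, which can cut TOP2 off a DNA end, MRE11 stood at 6.16 ± 0.167 RPKM and NBN at 8.87 ± 0.0960 RPKM. RAD50, of the same complex, was the lowest of the list at 0.692 ± 0.0180 RPKM, but only 23.1% of its exon bases are free of other genes, and the part of this in its count was not tested. Of the genes that process TOP1 adducts, 8 of 8 were measured, with a median of 22.03 RPKM. APEX1, an abasic-site endonuclease, was the highest at 157 ± 20.5 RPKM, and LIG3, a DNA ligase, the lowest at 5.70 ± 0.782 RPKM. Of the LIG3 exon bases 69.5% are free of other genes, and the part of this in its count was not tested. PARP1, which senses DNA breaks and acts with TDP1, stood at 114 ± 2.34 RPKM.

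End joining seals the breaks left once TOP2 has been removed, and 7 of 7 of its genes were measured, with a median of 4.86 RPKM. The DNA-end binding pair XRCC6 and XRCC5 stood at 214 ± 9.56 and 138 ± 6.24 RPKM and the kinase PRKDC at 49.0 ± 4.87 RPKM (SD, n = 2 in each). LIG4, the ligase of this pathway, and its partner XRCC4 were far lower, at 3.96 ± 0.199 and 4.86 ± 0.551 RPKM. NHEJ1 was the lowest, with 15 and 12 counts, and 74.1% of its exon bases are free of other genes. Of the TOP3 partners, 5 of 5 were measured, with a median of 6.999 RPKM. RMI2 was the highest at 15.3 ± 1.15 RPKM, RMI1 stood at 13.0 ± 1.08 and the helicase BLM at 6.72 ± 0.00613 RPKM, beside 11.3 for TOP3A. The TOP3B partners were FMR1, at 6.999 ± 1.24 RPKM, and TDRD3, the lowest of the list at 2.02 ± 0.108 RPKM. Of the genes that maintain mitochondrial DNA, 6 of 6 were measured, with a median of 27.4 RPKM. SSBP1, which coats single-stranded mitochondrial DNA, was the highest at 65.4 ± 6.56 RPKM and the helicase TWNK the lowest at 15.0 ± 0.0167 RPKM, and TOP1MT at 49.3 lay between them. Over merged exons TFAM, which packages mitochondrial DNA, was the highest at 37.8 RPKM and the polymerase subunit POLG2 the lowest at 8.59 RPKM, while SSBP1 stood at 13.0 and TWNK at 13.3 RPKM, below TOP1MT at 15.2. RMI2 and RMI1 also changed order, at 7.91 and 13.0 RPKM over merged exons.

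TOP2A was set beside 9 genes of S, G2 and M phase, all of them measured, with a median of 28.3 RPKM. TOP2A, at 62.6 and 70.3 RPKM in the libraries, was above 7 of the 9 genes in both libraries. CDK1, the mitotic kinase, at 116 ± 3.26 RPKM, and its cyclin CCNB1, at 78.7 ± 3.22 RPKM, were above TOP2A on this scale. In CPM, TOP2A was above 9 of 9. Over merged exons TOP2A had a mean of 59.4 RPKM, with 55.9 and 62.8 RPKM in the libraries. The mean of CDK1, 58.0 RPKM, lay between these libraries, so the 2 genes are not put in order on this scale. The mean of CCNB1, 65.6 RPKM, was above both libraries of TOP2A. KIF11, a spindle motor, was the lowest at 12.8 ± 0.689 RPKM. Of the meiotic genes related to type II enzymes, SPO11 had 1 and 2 counts and TOP6BL, named C11orf80 in the annotation, had 256 and 166 counts, or 5.52 ± 0.0929 RPKM.

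**Figure D5:**
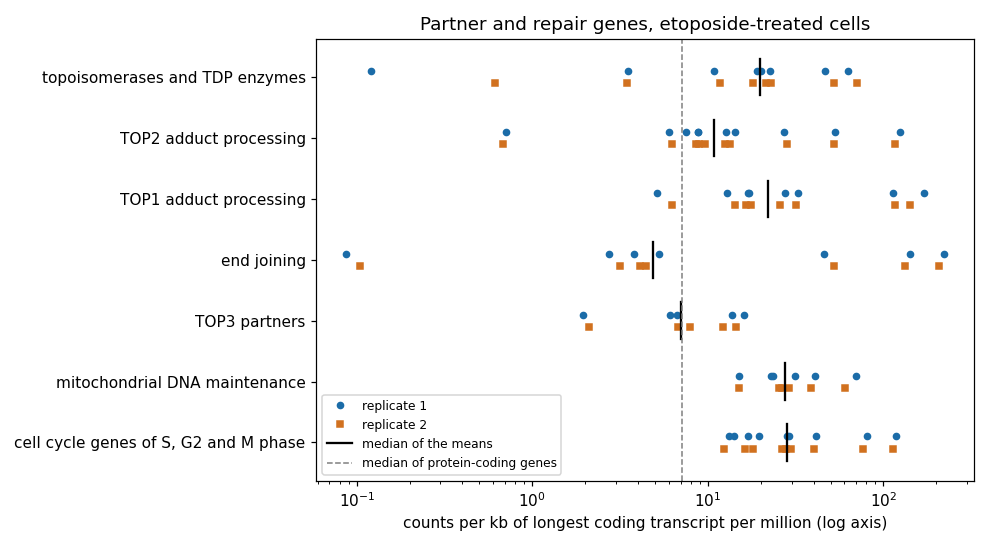
Levels of the 8 genes and of the genes of 6 lists in RPKM over the longest coding transcript (log axis), in replicate 1 (circles) and replicate 2 (squares), with the median of each list (black) and of protein-coding genes with 10 or more counts in both libraries (dashed). The mitochondrial and cell cycle lists lie right of the dashed line, with medians of 27.4 and 28.3, while the end joining list spans from NHEJ1 to XRCC6.

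The labels give the tissue as bone and the cell type as epithelial. Markers of both are given beside the 68.9% of all 19892 protein-coding genes that had 10 or more counts in both libraries. Of 10 mesenchymal and bone markers 8 had 10 or more counts in both libraries, led by COL1A1, VIM and SPARC, while COL1A2 had 5 and 2 counts and BGLAP 8 and 2. Of 8 epithelial markers 7 had 10 or more counts, led by KRT8 and KRT18. CLDN4 had 615 and 356 counts and EPCAM 293 and 169. Lower were KRT14 with 62 and 27, CDH1, the epithelial cadherin, with 30 and 20, and KRT5 with 17 and 21. KRT19 had 1 and 0. Of 6 blood and endothelial markers only PECAM1 reached 10 counts in both libraries, and the 6 summed to 1.91 and 2.53 CPM.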

How the data were processed

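RNA-Seq was performed on poly-A RNA of U2OS cells. The authors mapped paired reads (HISAT2 2.1.0, GRCh38), counted them per Ensembl gene with featureCounts of Subread 2.0.0 and deposited raw counts, 1 value per gene and library, without normalization. The Ensembl release and the strand and multi-overlap settings are not given in the sources used here. The control and adriamycin counts were analysed for the first 220 to 292 genes of the list only, 1 cut-off line at the end of each of the 4 tables was dropped, and they entered no comparison. Symbols, positions and exon lengths were taken from GENCODE release 44, which named 60357 of the 67140 identifiers, and the identifiers without a name held 0.0411% and 0.0445% of the counts. Of the 8 genes, 7 had a promoter in the RefSeq table.

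CPM is the count per 1000000 counts of the library, and RPKM the CPM per kilobase of exon. A gene was called measured at 10 or more counts in both etoposide libraries. The libraries were compared by a two-sided exact binomial test with Benjamini-Hochberg adjustment over 17207 genes (scipy 1.17.1, Python 3.11.15). The test was checked on simulated counts that held counting noise alone, in which 4.85% of unchanged genes had an exact binomial p under 0.05. Spread between the libraries beyond counting noise was not simulated. The alternatives were edgeR 4.0.16 TMM and DESeq2 1.42.0 size factors (R 4.3.3), other exon lengths, other minimum counts and leaving out each library. The genes named are the 8 genes, their pseudogenes and overlapping genes, and the highest, the lowest and the scarcely counted genes of each list; other genes of the lists were named after their values were seen. The genes and lists were chosen with earlier results of these data known.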

Additional observations from a re-analysis of the deposited data

How the results depend on the processing

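The length used for a gene changed the order and the shares. With the longest coding transcript in place of merged exons, 4 of the 8 genes kept their place in the order, the share of TOP2A in TOP2A plus TOP2B was 74.4% in place of 89.3%, and that of TDP2 in TDP1 plus TDP2 was 84.3% in place of 86.4%. From the counts themselves, a choice made after seeing the data, these shares were 74.0% and 75.3%. TOP2A and TDP2 held the larger share under each of these settings. When either library was left out, the order over merged exons was unchanged, and the shares over merged exons ranged from 88.8% to 89.8% and from 86.2% to 86.7%. The number of genes above the median of protein-coding genes was 6 of 8 under each setting run. Of the genes that differed between the libraries, TOP3A was not called with edgeR's TMM or DESeq2's size factors, which left 2 of 3, and TOP3B was added with a minimum of 1 count, which gave 4. No paired analysis was possible because the 8 genes were analysed in the libraries of 1 group. For the same reason the planned comparisons between groups, by edgeR in a single fit of the 6 libraries without a replicate block, were not run. Over free exon bases, TOP3B was above TDP1 in the second library alone and below it in the first. With 2 libraries and counting settings that are not stated, the levels of genes whose exons other genes cover, such as TOP3B and RAD50, are uncertain, and so are those with few counts, such as NHEJ1 and SPO11. The highest and lowest genes of some lists also changed with the length used.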

Other observations

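The genes annotated as protein-coding next to TOP3B on chromosome 22, examined after its values were seen, differed widely in their counts. PPM1F, which lies on the side of the TOP3B 3′ end, had 1575 and 1035 counts in the etoposide libraries. VPREB1, a gene of B-cell precursors, was the nearest with this annotation on the other side, 275 kb away from middle to middle. VPREB1 had 0 counts in both, which allows up to 0.140 and 0.211 CPM. ZNF280B, beyond it, had 1110 and 750 counts, and PRAME, a cancer-testis antigen, had 7790 and 5039 counts, or 363 and 354 CPM. TOP3BP1, a pseudogene of TOP3B in the same stretch, had 0 counts in both libraries.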
